A study of Mus musculus with 11 samples.

Results

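The genes described here encode subunits of the oxidative phosphorylation complexes, the 5 protein assemblies of the inner mitochondrial membrane that carry electrons to oxygen and make ATP. They were taken by gene symbol: the mitochondrially encoded mt-Nd, mt-Co, mt-Atp and mt-Cytb genes, and the nuclear Nduf, Sdh, Uqcr, Cox4 to Cox8 and Atp5 genes. A gene also needed at least 100 counts summed over 11 libraries. Of 55414 genes in the table, 117 had such a symbol, and 103 of these reached the minimum. They comprised 13 mitochondrially encoded genes, 80 nuclear genes and 10 pseudogenes. All 103 passed the filter on low counts. Just inside the minimum were the pseudogene Ndufa12-ps with 139 summed counts and Uqcrh-ps1 with 144. Just outside lay Cox6a2, a heart and muscle subunit, with 82, the pseudogene Atp5k-ps2 with 80, and Cox4i2, a subunit best known from lung, with 62. Among the 14 genes under the minimum, 4 had 0 counts in all libraries.

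RNA was sequenced from whole livers of 11 male Clec4f-DTR mice. In this allele the Clec4f promoter, active in Kupffer cells, the resident macrophages of the liver, drives the receptor for diphtheria toxin (DT), and every mouse carried it, controls included. Diets started when the mice were 8 weeks old and lasted 16 weeks. In 4 mice western diet with alcohol was combined with serial DT injections (DT livers), and in 4 it was combined with serial saline injections (saline livers). The other 3 mice were on chow, and their labels name no injection (chow livers), so diet, alcohol and injection cannot be told apart in comparisons with chow. Replicates are named as separate samples of a group, so p-values measure the spread between these livers. In whole tissue, fewer cells of a type and less RNA per cell cannot be told apart.

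Complex I (NADH dehydrogenase) and complex II (succinate dehydrogenase) pass electrons to ubiquinone, complex III (cytochrome bc1) passes them to cytochrome c, and complex IV (cytochrome c oxidase) hands them to oxygen. Complex V (ATP synthase) uses the proton gradient to make ATP. All except complex II combine subunits translated inside the organelle with subunits imported from the cytosol. Hepatocytes are rich in mitochondria and rely on these complexes for fatty acid oxidation, urea synthesis and gluconeogenesis. Mitochondrial genes are transcribed as long polycistronic RNAs from both strands of a circular genome, and most protein-coding genes lie on the same strand. Mt-Nd6 is the exception and is read from the opposite strand.

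Part of the mitochondrial genome also exists as a copy on mouse chromosome 1, annotated as a row of unprocessed pseudogenes, and this bears on what the mitochondrial counts mean. In the GENCODE M21 transcripts (GRCm38), the whole aligned length of 4 genes matched its copy without a mismatch: 681 bases of mt-Co2, 678 of mt-Atp6, 783 of mt-Co3 and 342 of mt-Nd3. For mt-Nd4 the copy covered the first 876 of 1378 bases, and for mt-Co1 it covered the last 483 of 1545 bases with 1 mismatch. The start of mt-Atp6, which encodes the membrane subunit of the proton channel of complex V, is shown with its copy Gm10925, because such a read has more than one equally good place. They lie at chrM:7927-8046 (+) and chr1:24614532-24614651 (-).
mt-Atp6: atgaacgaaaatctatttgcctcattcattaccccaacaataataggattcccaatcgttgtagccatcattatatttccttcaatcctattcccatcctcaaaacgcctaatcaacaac
Gm10925: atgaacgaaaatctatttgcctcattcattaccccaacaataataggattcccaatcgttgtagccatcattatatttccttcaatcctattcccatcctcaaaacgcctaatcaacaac
The edge of the copied part inside mt-Co1, the catalytic core of complex IV, is shown with its counterpart Gm29216, at chrM:6381-6500 (+) and chr1:24616078-24616197 (-). Capitals mark the 6 bases at which they differ, all near the 5′ end.
mt-Co1: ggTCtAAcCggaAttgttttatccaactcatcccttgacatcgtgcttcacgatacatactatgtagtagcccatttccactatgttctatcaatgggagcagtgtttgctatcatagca
Gm29216: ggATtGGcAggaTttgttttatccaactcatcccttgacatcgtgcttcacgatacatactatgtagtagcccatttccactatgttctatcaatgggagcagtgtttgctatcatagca

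Counted levels per length followed this segment. Per kb of transcript, saline livers averaged 15855 CPM for mt-Co1, 11614 CPM for mt-Cytb, 9750 CPM for mt-Nd2 and 9376 CPM for mt-Nd1. For the genes copied whole, the averages per kb were 87.2 CPM for mt-Atp6, 81.3 CPM for mt-Co2, 71.1 CPM for mt-Co3 and 19.6 CPM for mt-Nd3. Mt-Atp8 and mt-Nd4l lie between copied genes and had 77.8 and 37.2 CPM per kb. These low values are thus below the 554 CPM per kb of Atp5b, the catalytic beta subunit of complex V and the highest nuclear gene of the set, whereas the genes outside the segment other than mt-Nd6 stood far above it. Mt-Nd6 had 249 CPM per kb. Whether reads with several equally good places were left out of the deposited counts is not stated, so levels of the copied genes were compared between livers only, not with other genes.

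**Figure D1:**
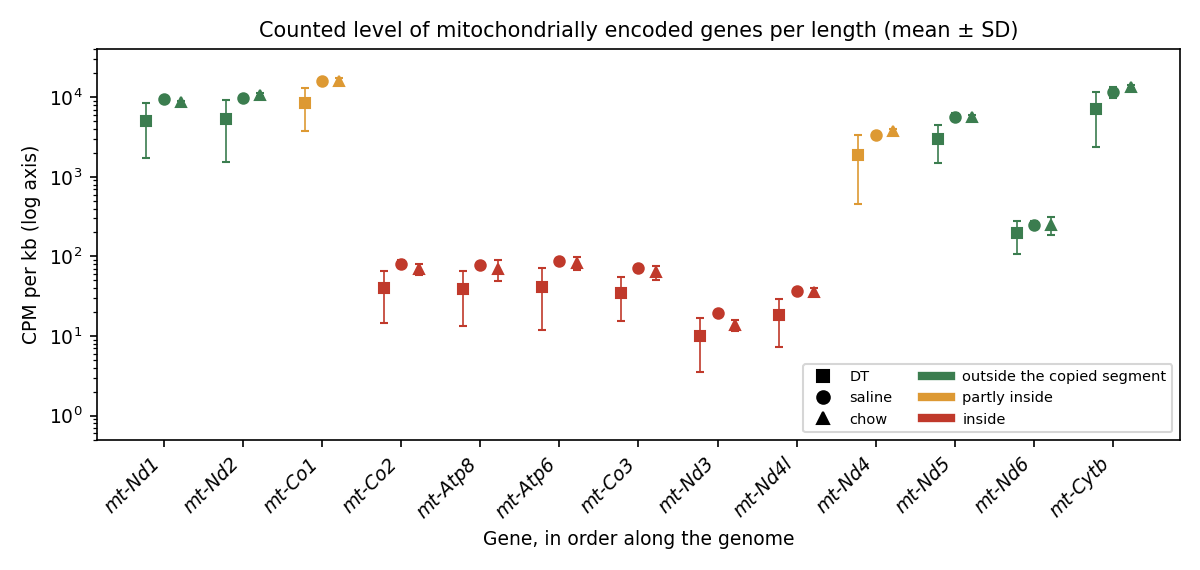
Counted level of each mitochondrially encoded gene in CPM per kb of transcript (log axis), in the order of the genes along the genome, as mean ± SD over 4 DT livers, 4 saline livers and 3 chow livers. Genes inside the copied segment, from mt-Co2 to mt-Nd4l, had means between 19.6 and 87.2 CPM per kb in saline livers, and mt-Co1, copied in part, had 15855.

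Library totals ran from 43995217 to 58089531 counts, and 17038 genes were tested with edgeR's quasi-likelihood test. Values are TMM-normalised CPM unless a share of counts is named, and an adjusted p (Benjamini-Hochberg) below 0.05 is a call. The whole-liver label was checked against the hepatocyte transcript Alb, which had 47582 to 61997 CPM in DT livers, 54200 to 71713 CPM in saline livers and 61899 to 80324 CPM in chow livers. Clec4f had 6.18 to 15.2 CPM in DT livers, against 43.1 to 49.1 CPM in saline livers. Of other cell type markers, 7 of 7 for cholangiocytes and 7 of 8 for stellate cells and fibroblasts rose in DT livers against saline livers, and 7 of 8 for Kupffer cells fell. DT liver 2 stood apart from the other DT livers: its summed cholangiocyte markers were 28.6 CPM, against 231 to 409 CPM in the other DT livers and 20.3 to 46.3 CPM in saline livers. DT liver 1 stood apart by base composition. Transcripts under 40% GC were at a median log2 difference from the saline mean of -1.29 in DT liver 1, against -0.14 to -0.04 in the other DT livers.

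The clearest feature of the set was an unequal change of its mitochondrially and nuclear encoded parts in DT livers. The 13 mitochondrially encoded genes took 1.32%, 6.82%, 4.65% and 5.45% of all counts in DT livers 1 to 4. In saline livers 1 to 4 they took 6.15%, 7.36%, 6.96% and 6.72%, and in chow livers 1 to 3 they took 6.24%, 6.64% and 6.71%. DT livers 1, 3 and 4 were thus below every saline and chow liver, whereas DT liver 2 lay within the range of the saline livers. The 80 nuclear genes took 1.20%, 1.09%, 0.979% and 0.951% in DT livers, against 0.977%, 0.963%, 0.963% and 0.950% in saline livers and 0.944%, 0.980% and 0.975% in chow livers. Here DT livers 1, 2 and 3 were above every saline liver.

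The ratio of mitochondrially to nuclear encoded counts within a library needs no scaling between libraries. It was 1.09, 6.26, 4.75 and 5.73 in DT livers, against 6.30, 7.64, 7.23 and 7.07 in saline livers and 6.61, 6.78 and 6.88 in chow livers. Every DT liver was below every saline and chow liver, though DT liver 2 missed saline liver 1 by little. With the 5 genes wholly outside the copied segment, the ratio was 0.547, 3.76, 2.94 and 3.54 in DT livers and 3.62, 4.53, 4.41 and 4.24 in saline livers, and on that basis DT liver 2 overlapped the saline livers. A ratio of this kind shows unequal change and not which side moved.

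**Figure D2:**
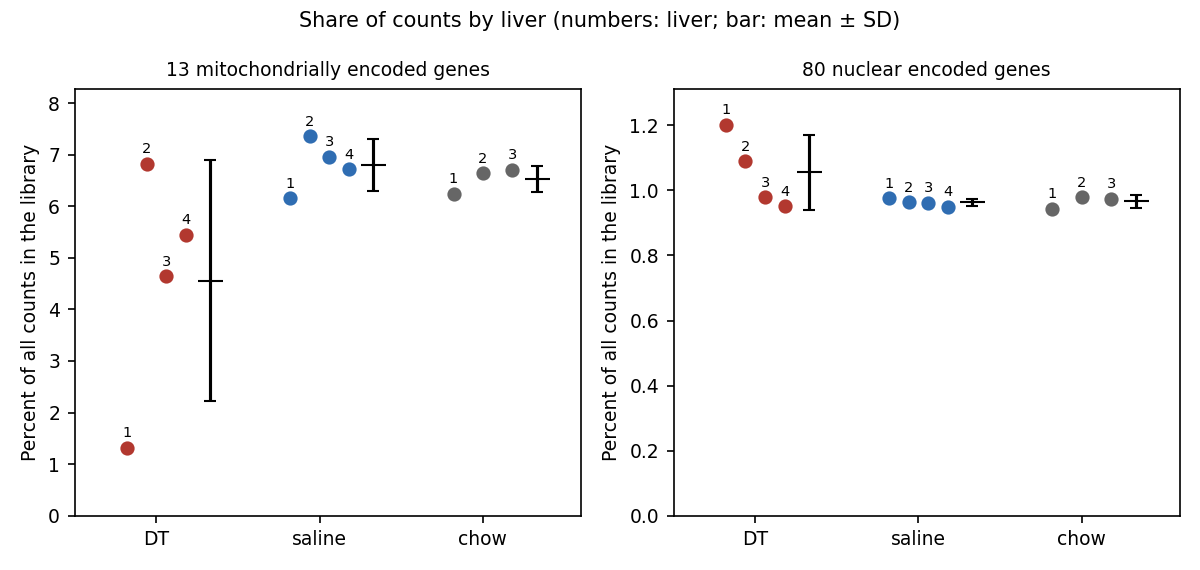
Percent of all counts in each library taken by the 13 mitochondrially encoded genes (left) and the 80 nuclear genes (right), by liver, with the mean ± SD of each group beside the points. The mitochondrially encoded share was 1.32% to 6.82% in DT livers, 6.15% to 7.36% in saline livers and 6.24% to 6.71% in chow livers, while the nuclear share stayed between 0.944% and 1.20%.

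Gene by gene, all 13 mitochondrially encoded genes had a log2 fold change below 0 in DT against saline livers, with a median of -0.93 beside 0.02 over all genes tested. None was called, where 21.9% of all genes tested were. Before adjustment 5 of 13 had a p below 0.05, and the adjusted p ran from 0.059 to 0.38. DESeq2 called 3, beside 28.8% of all genes, and limma-voom 1, beside 17.9%. The median stayed below 0 under every scaling tried, at -0.62 under scaling to total counts.

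Among the complex I genes, mt-Nd1, which helps form the ubiquinone site, had 1149, 9000, 4444 and 4868 CPM in DT livers, against 8632, 9284, 8229 and 9746 CPM in saline livers. DT liver 2 lay inside the saline range, and the others were below it. Its log2 fold change was -0.88 ± 0.43 (SE) with an adjusted p of 0.16. Mt-Nd5, a proton-pumping subunit at the far end of the membrane arm, had 1634, 7866, 5608 and 6695 CPM in DT livers and 8677, 10814, 11132 and 11056 CPM in saline livers. Here the groups did not overlap with TMM, and the log2 fold change was -0.93 ± 0.36 with an adjusted p of 0.084. Scaled to total counts, DT liver 4 was above saline liver 1. Mt-Nd6, from the opposite strand, differed least of the 13, with 49.5, 159, 91.1 and 104 CPM in DT livers and 111, 136, 141 and 130 CPM in saline livers. DT liver 2 was the highest of all 8 livers for this gene, and the log2 fold change was -0.36 ± 0.28 with an adjusted p of 0.38. The end of mt-Nd6 overlaps that of mt-Nd5, and without a stated strand setting its reads cannot be told from those of the opposite strand.

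For complex III, mt-Cytb encodes cytochrome b, which holds both quinone sites. It had 1541, 14526, 7558 and 8474 CPM in DT livers and 11071, 15857, 13990 and 12226 CPM in saline livers, with a log2 fold change of -0.73 ± 0.47 and an adjusted p of 0.28. Again DT liver 2 was inside the saline range. The complex IV core gene mt-Co1 had more counts than any other gene of the 13. It had 4942, 22605, 11571 and 13338 CPM in DT livers and 23558, 26792, 23000 and 24630 CPM in saline livers, which did not overlap. Its log2 fold change was -0.90 ± 0.35 with an adjusted p of 0.083. Mt-Co3, a core subunit without a metal centre, came nearest to a call, at 9.15, 46.9, 26.6 and 27.5 CPM in DT livers and 51.2, 57.9, 50.1 and 63.8 CPM in saline livers. The groups did not overlap, and the log2 fold change was -1.02 ± 0.35 with an adjusted p of 0.059. In complex V, mt-Atp6 had 2.58, 51.6, 28.0 and 30.3 CPM in DT livers and 52.8, 60.6, 57.8 and 66.2 CPM in saline livers, with a log2 fold change of -1.08 ± 0.56 and an adjusted p of 0.18.

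The spread over DT livers was wide and ordered alike in all 13 genes. Relative to the saline mean, the median log2 difference of the 13 was -3.13 in DT liver 1, -0.15 in DT liver 2, -1.01 in DT liver 3 and -0.80 in DT liver 4. With TMM, all 13 genes were below every saline liver in DT livers 1, 3 and 4, and in DT liver 2 this held for 7. The same count over all genes tested was not made. DT livers 3 and 4 were alike, with differences from -1.08 to -0.50 in DT liver 3 and from -1.01 to -0.31 in DT liver 4. DT liver 1 ranged from -4.50 for mt-Atp6 to -1.38 for mt-Nd6.

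**Figure D3:**
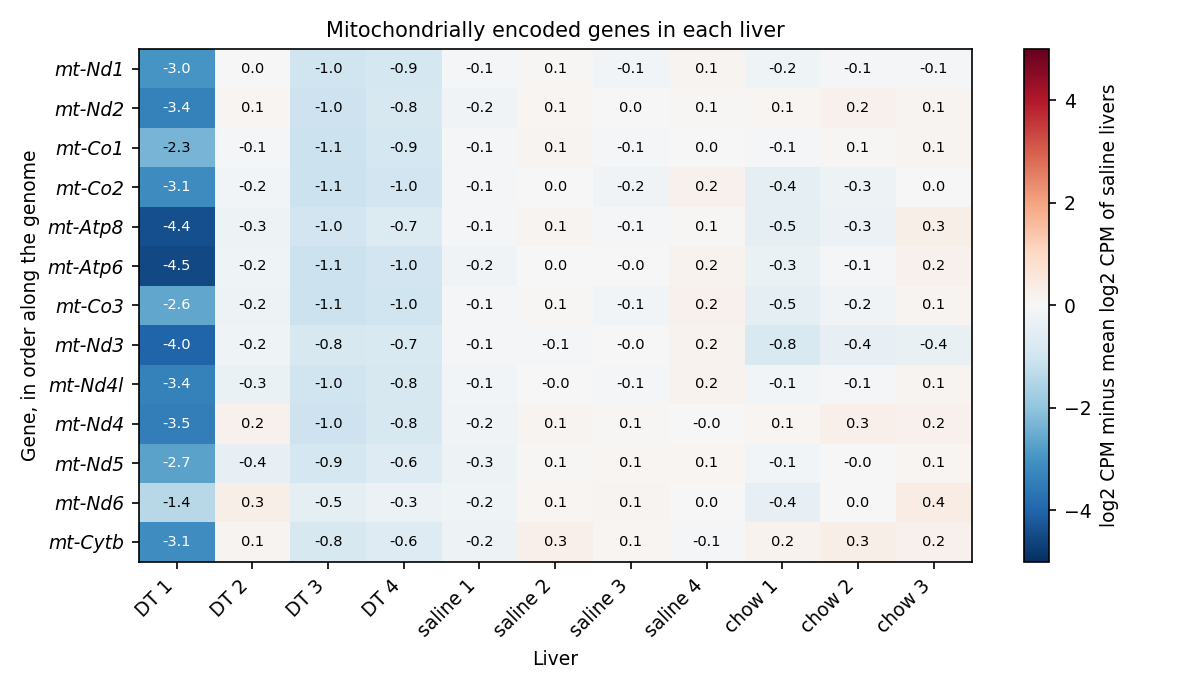
Difference of log2 CPM from the mean of the saline livers for the 13 mitochondrially encoded genes (down the page, in genome order) in each of 11 livers (across), with the value in each cell. The lowest values are in DT liver 1, from -4.50 to -1.38, DT livers 3 and 4 lie between -1.08 and -0.31, and DT liver 2 lies between -0.40 and 0.30.

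Nuclear genes differed less, and their direction depended on the scaling. In DT against saline livers their median log2 fold change was -0.19, and 75 of 80 were below 0, but under scaling to total counts the median was 0.13. Only Sdha was called, so 1 of 80 fell and none rose, against 21.9% of all genes tested. The DT livers did not behave alike. In DT livers 3 and 4, 75 and 77 of 80 genes were below every saline liver, with median log2 differences from the saline mean of -0.44 and -0.51. In DT liver 2, 65 of 80 were above every saline liver, with a median of 0.21. DT liver 1 lay between them at -0.07, with 43 genes below and 11 above. How many of all genes tested lay outside the saline range was not counted. These counts therefore cannot be called particular to the set. Scaled to total counts instead, the 4 nuclear medians were 0.31, 0.26, -0.01 and -0.05. The TMM factors were 1.23, 0.97, 1.27 and 1.30 in DT livers and 0.92 to 0.97 in saline livers. The part of marker levels and base composition in these differences was not tested.

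With DT liver 2 left out, 40 nuclear genes were called in DT against saline livers (39 lower, 1 higher), beside 40.3% of all genes. With DT livers 1 and 2 both left out, 76 were called (75 lower, 1 higher), beside 45.2% of all genes. This fit was added after the values were seen. It kept the DT livers in which most nuclear genes already lay below every saline liver, so its count follows from that choice. Mitochondrially encoded genes called lower numbered 5 without DT liver 1, 8 without DT liver 2 and 12 without both. The shares of all genes called in these fits were 18.75%, 40.3% and 45.2%. Of the DT livers, liver 2 had the cholangiocyte, stellate cell and leucocyte marker levels nearest to those of saline livers. This did not hold for its summed Kupffer cell markers, 254 CPM, against 265, 228 and 214 CPM in DT livers 1, 3 and 4. Nor did it hold for its summed smooth and skeletal muscle markers, 19.3 CPM, which were above the 18.4 and 16.3 CPM of DT livers 3 and 4.

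The medians of the complexes lay close together. In DT against saline livers the median log2 fold change was -0.20 over 36 nuclear complex I genes, -0.16 over 4 complex II genes, -0.19 over 8 complex III genes, -0.19 over 15 complex IV genes and -0.17 over 17 complex V genes. Within complex I, the 7 core subunits that carry the flavin and iron-sulphur centres had a median of -0.14 and the 29 supernumerary subunits one of -0.20. All lay far nearer to each other than to the mitochondrially encoded median of -0.93.

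**Figure D4:**
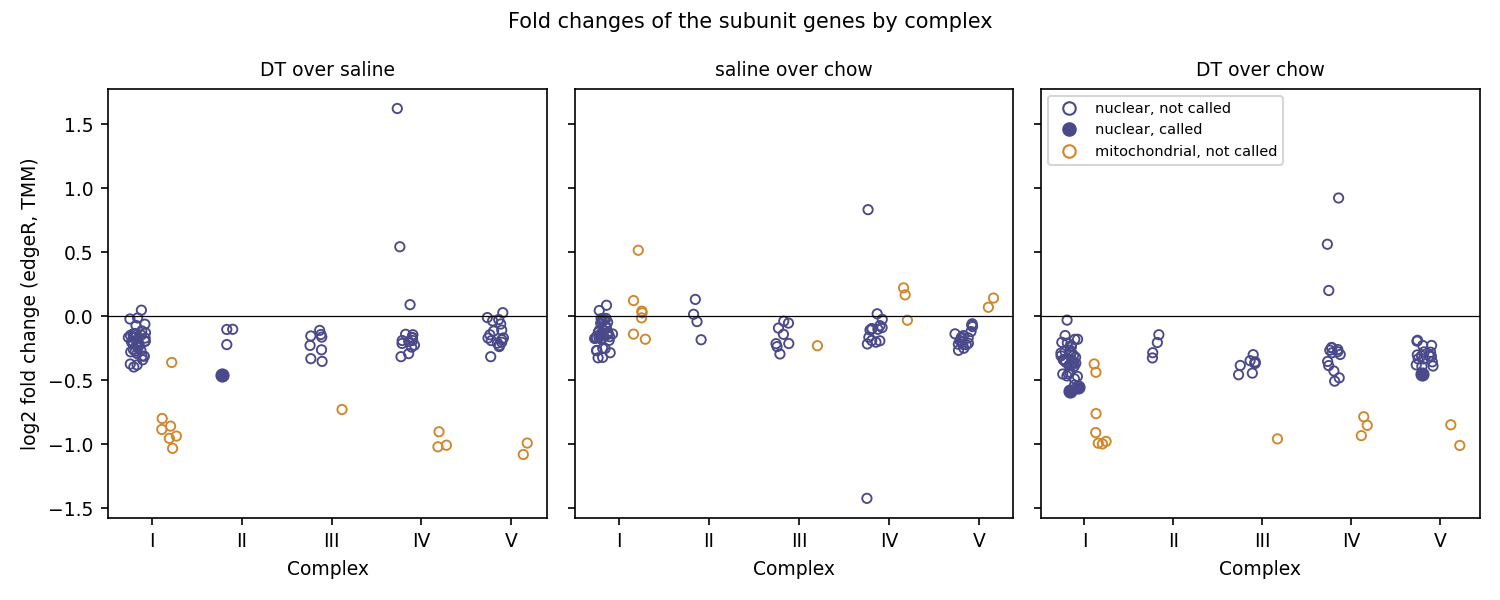
Log2 fold change (edgeR, TMM) of each nuclear and mitochondrially encoded gene by complex, for DT over saline livers, saline over chow livers and DT over chow livers. Filled points passed an adjusted p of 0.05: Sdha at -0.46 in DT over saline livers, and Ndufb11 at -0.58, Ndufa1 at -0.55 and Atp5j at -0.45 in DT over chow livers. The uncalled points above 0.5 in DT over saline livers are Cox6b2 and Ndufa4l2.

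In complex I, Ndufs1, the largest core subunit and a carrier of iron-sulphur clusters, had 105, 103, 97.5 and 85.7 CPM in DT livers, against 119, 124, 112 and 115 CPM in saline livers. With TMM the groups did not overlap, and the log2 fold change was -0.27 ± 0.10 with an adjusted p of 0.066. Scaled to total counts, they overlapped, with DT livers 1 and 3 above every saline liver. The supernumerary Ndufa1, needed for assembly of the membrane arm, had 35.4, 63.9, 36.8 and 39.4 CPM in DT livers and 53.8, 58.7, 55.5 and 60.2 CPM in saline livers. DT liver 2 was above all saline livers and the other 3 DT livers were below them, which gave -0.38 ± 0.17 and an adjusted p of 0.12. Ndufb3, another membrane-arm subunit, had the same arrangement, with 31.3, 50.8, 27.3 and 27.8 CPM in DT livers and 40.8 to 47.5 CPM in saline livers. The largest fall among nuclear complex I genes was that of Ndufb1, at -0.40 ± 0.20 with an adjusted p of 0.17.

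Complex II is wholly nuclear encoded and shares the succinate reaction with the citrate cycle. Sdha, its flavoprotein, had 435, 507, 342 and 363 CPM in DT livers, against 562, 579, 567 and 552 CPM in saline livers. With TMM every DT liver was below every saline liver, including DT liver 2, but scaled to total counts DT liver 1 was above saline liver 4. Sdha fell by 0.46 on the log2 scale (SE 0.14) with an adjusted p of 0.035 in edgeR. The call was kept in 2 of 11 refits that each left out 1 liver, with a highest adjusted p of 0.105 without DT liver 3, and under total count scaling the value was -0.14 and not called. Sdhb, Sdhc and Sdhd, the iron-sulphur and membrane anchor subunits, had log2 fold changes of -0.10, -0.10 and -0.22 and were not called.

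The promoter of Sdha is shown because the gene was the only one of the set called between DT and saline livers, and because it holds 3 matches to the NRF1 motif GCGCANGCG, a site of the nuclear respiratory factor that drives many respiratory chain genes. The capitals mark these matches. The window runs from 250 bases before to 50 after the start of the gene, at chr13:74350191-74350490 (-) in RefSeq on GRCm38.p6.
Sdha: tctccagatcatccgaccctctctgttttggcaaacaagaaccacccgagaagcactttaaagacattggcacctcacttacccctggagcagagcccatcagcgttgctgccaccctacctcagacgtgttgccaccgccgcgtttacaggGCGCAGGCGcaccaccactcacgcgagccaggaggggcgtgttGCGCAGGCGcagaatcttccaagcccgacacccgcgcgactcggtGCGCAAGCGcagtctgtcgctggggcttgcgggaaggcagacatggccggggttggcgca
Of the 80 nuclear genes, 67 had a promoter in that table, with 72 windows. Searched on both strands, GCGCANGCG was in 29.2% of these windows, against 6.25% of all 32851 windows of the same length. AAGATGGCG, for YY1, was in 9.72% against 1.40% of all windows. CCGGAAGT, for ETS factors such as GABPA, was in 6.94% against 3.89%, and TCAAGGTCA, for ERR alpha, in 2.78% against 0.423%. A match is a run of letters and not a measured site.

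Complex III genes were not called in DT against saline livers. Uqcrb, which binds ubiquinone, had 52.2, 117, 58.7 and 59.0 CPM in DT livers, against 93.7, 92.0, 85.6 and 94.1 CPM in saline livers. Of the 8 livers DT liver 2 was the highest and the other DT livers the lowest, and the log2 fold change was -0.35 ± 0.21 with an adjusted p of 0.25. Uqcrq gave -0.33 ± 0.19, and the core protein Uqcrc2 gave -0.26 ± 0.15, with adjusted p of 0.23 and 0.21. Uqcrfs1, the Rieske iron-sulphur protein, gave -0.15 ± 0.12.

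Complex IV has subunits with tissue isoforms, and the liver forms carried nearly all counts. Cox4i1, the common form of the largest nuclear subunit, had 259, 338, 192 and 194 CPM in DT livers and 269, 285, 266 and 284 CPM in saline livers, while Cox4i2 fell below the minimum. Cox6a1 had 156 to 247 CPM in DT livers and 204 to 232 CPM in saline livers, and its muscle counterpart Cox6a2 fell below the minimum too. Cox7a2, the liver form, had 61.3 to 88.1 CPM in DT livers and 79.6 to 83.8 CPM in saline livers, and Cox7a1, the heart and muscle form, had 0.530 to 0.866 and 0.468 to 0.956 CPM.

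A pair of weakly expressed complex IV genes had the largest positive values. Cox6b2, an isoform known from testis, had 0.746, 0.0832, 0.706 and 0.689 CPM in DT livers, against 0.163, 0.122, 0.183 and 0.256 CPM in saline livers and 0.515, 0.532 and 0.415 CPM in chow livers. DT liver 2 was the lowest of all livers, near the 0.0606 CPM that 3 counts make in it, and the other DT livers were above all saline livers. The log2 fold change was 1.62 ± 0.56 with an adjusted p of 0.056, and DESeq2 called it at 0.0249. Ndufa4l2, a paralog of Ndufa4 that is induced by low oxygen in other settings, had 1.51 to 1.79 CPM in DT livers and 0.512 to 1.83 CPM in saline livers, which overlapped.

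No complex V gene was called in DT against saline livers. Atp5b had 1292, 1089, 939 and 896 CPM in DT livers and 1123, 1039, 1014 and 1069 CPM in saline livers, with a log2 fold change of -0.01 ± 0.14. Atp5a1, the alpha subunit of the catalytic head, had 754 to 953 CPM in DT livers and 973 to 1019 CPM in saline livers. With TMM these did not overlap, but the difference of -0.21 ± 0.12 had an adjusted p of 0.24. Scaled to total counts, DT liver 1 was above every saline liver. Atp5g1, Atp5g2 and Atp5g3, the 3 genes for the same c-ring protein, had log2 fold changes of 0.03, -0.03 and -0.19. Atp5j, a subunit of the stalk, had 83.2, 125, 83.2 and 81.4 CPM in DT livers and 113, 122, 111 and 118 CPM in saline livers, with -0.32 ± 0.14 and an adjusted p of 0.12.

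Western diet with alcohol and saline injections, against chow, left the set with no call. No nuclear gene and no mitochondrially encoded gene was called by edgeR, DESeq2 or limma-voom, where 5.58% of all genes tested were called by edgeR. Before adjustment 1 nuclear and 0 mitochondrially encoded genes had a p below 0.05. The nuclear median log2 fold change was -0.15, with 74 of 80 below 0, beside 0.00 over all genes, and it was -0.02 under scaling to total counts. The mitochondrially encoded median was 0.04. DT livers enter the spread used here. With only saline and chow livers in the fit, 7 of 80 nuclear genes fell, among them Ndufb11 by 0.31 on the log2 scale. In that fit mt-Nd3 rose by 0.53, and 20.1% of all genes were called, a larger share than in the set. Ndufb11, a membrane-arm subunit, had 91.9, 97.8, 94.8 and 96.9 CPM in saline livers and 120, 118 and 120 CPM in chow livers, which did not overlap. Mt-Nd3 had 6.54, 6.32, 6.71 and 7.69 CPM in saline livers and 3.94, 5.16 and 5.19 CPM in chow livers, also without overlap, but it lies inside the copied segment.

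DT livers against chow livers gave 3 nuclear calls, all lower, where 23.0% of all genes tested were called. This comparison shares its DT livers with the first and its chow livers with the second, so it is not independent of either. The nuclear median was -0.32, with 77 of 80 below 0 and 26 at an unadjusted p below 0.05, beside -0.02 over all genes, but under scaling to total counts the median was 0.11. Ndufb11 had 83.3, 113, 63.2 and 59.7 CPM in DT livers, and fell by 0.58 on the log2 scale (SE 0.18, adjusted p 0.041). With TMM all were below the chow livers given above, but scaled to total counts DT liver 2 was above them. Ndufa1 had 60.3, 67.5 and 65.1 CPM in chow livers, with DT liver 2 at 63.9 CPM among them, and fell by 0.55 (SE 0.18, adjusted p 0.046). Atp5j had 121, 130 and 131 CPM in chow livers, with DT liver 2 at 125 CPM among them, and fell by 0.45 (SE 0.15, adjusted p 0.047). Each of these 3 calls was kept in 1 of 11 refits that left out 1 liver, and none held under scaling to total counts. Mitochondrially encoded genes had a median of -0.91, none was called by edgeR, and 3 were at an unadjusted p below 0.05. DESeq2 called mt-Co1 alone, beside 28.4% of all genes.

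Atp5j is shown because its call and its promoter illustrate another motif of the set. The gene has 2 promoter windows in RefSeq, and the one at chr16:84834927-84835226 (-) of GRCm38.p6 holds a match to the YY1 motif, in capitals.
Atp5j: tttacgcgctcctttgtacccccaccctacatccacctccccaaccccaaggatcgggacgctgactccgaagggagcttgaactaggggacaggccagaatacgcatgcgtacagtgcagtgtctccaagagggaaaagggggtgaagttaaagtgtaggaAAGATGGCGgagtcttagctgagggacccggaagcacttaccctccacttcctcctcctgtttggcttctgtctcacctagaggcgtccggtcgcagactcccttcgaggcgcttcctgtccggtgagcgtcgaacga
The promoters of Ndufa1 and Ndufb11 held none of the 4 motifs, which says nothing of the factors.

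Base composition moved with the mitochondrially encoded values in DT liver 1. Of the 13 genes, 12 were under 40% GC, and mt-Nd4l was between 40% and 45%, whereas 1 of 80 nuclear genes was under 40%. All tested genes under 40% GC had a median log2 difference from the saline mean of -1.29 in DT liver 1, beside -3.13 for the mitochondrially encoded genes, and genes over 55% GC had 0.30. In DT livers 3 and 4 genes under 40% GC were at -0.14 and -0.04, beside -1.01 and -0.80 for the mitochondrially encoded genes. Across the 80 nuclear genes, Spearman's rho between GC content and the difference was 0.42 in DT liver 1 and 0.04 to 0.13 in the other DT livers, and genes of one library share its depth and are not replicates. After a correction for GC content that was added with the data in view, the median over all genes in DT against saline livers was -0.17, the nuclear median -0.42 and the mitochondrially encoded median -0.77. With that correction 27.6% of all 17038 genes tested were called, 2930 lower and 1770 higher. Of the set, 14 of 80 nuclear and 6 of 13 mitochondrially encoded genes were called, all lower, including mt-Nd5, mt-Co3 and Sdha. The nuclear share of falls was thus near that of all genes.

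**Figure D5:**
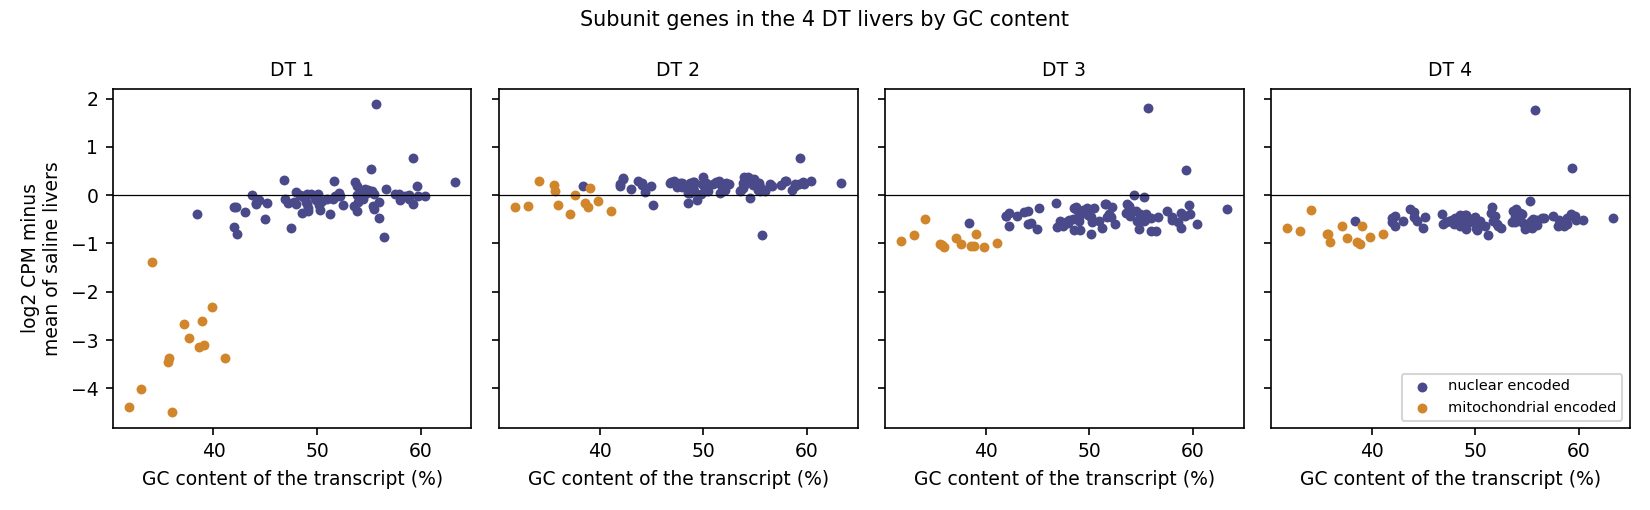
GC content of the transcript (percent) against the difference of log2 CPM from the mean of the saline livers, for 80 nuclear and 13 mitochondrially encoded genes in DT livers 1 to 4. Mitochondrially encoded genes, nearly all under 40% GC, had a median of -3.13 in DT liver 1, -0.15 in DT liver 2, -1.01 in DT liver 3 and -0.80 in DT liver 4. The medians over all 80 nuclear genes were -0.44 in DT liver 3 and -0.51 in DT liver 4, with Cox6b2 highest at 1.80 and 1.77.

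Among genes that build the complexes, 7 of 46 tested assembly factors fell and 1 rose in DT against saline livers, with a median of -0.23. Over all 17038 genes tested 21.9% were called, 1298 lower and 2436 higher. The factors thus had a smaller share of calls but a larger share of falls. Taco1, which is needed to translate mt-Co1, had 16.8, 14.3, 12.6 and 13.4 CPM in DT livers, against 23.9, 24.0, 18.3 and 20.4 CPM in saline livers. With TMM the groups did not overlap, and it fell by 0.60 on the log2 scale (SE 0.12, adjusted p 0.0096) and stayed called in 11 of 11 refits without 1 liver. Ttc19, a complex III factor, fell by 0.60, and Cox17, a copper chaperone for complex IV, rose by 0.73, with 1.99 to 3.00 CPM in DT livers and 1.20 to 2.15 CPM in saline livers. Under scaling to total counts Taco1 and Ttc19 were at -0.26 and -0.28 and not called. The Ttc19 call was kept in 7 of 11 refits and the Cox17 call in 3. In saline against chow livers 1 of 46 was called, beside 5.58% of all genes. It was Foxred1, a complex I factor, which fell by 0.45 (SE 0.09, adjusted p 0.014), a call kept in 8 of 11 refits and lost under total counts.

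Of 28 genes for mitochondrial transcription, replication and RNA processing, 4 fell in DT against saline livers and none rose, with a median of -0.20. The share called was again below 21.9%, but the share of falls was above that of all genes, 1298 of 17038. Lrpprc, which stabilises mitochondrial messenger RNA, had 84.5, 92.4, 88.0 and 72.8 CPM in DT livers, against 119, 113, 104 and 120 CPM in saline livers and 113, 112 and 109 CPM in chow livers. With TMM all DT livers were below the other 7, and Lrpprc fell by 0.43 against saline livers (SE 0.10, adjusted p 0.013), in 11 of 11 refits. Tfam, which packages and transcribes the mitochondrial genome, fell by 0.38 (SE 0.12, adjusted p 0.045), a call kept in 2 of 11 refits, and the transcription factor Tfb2m fell by 0.41, also kept in 2 of 11. Under scaling to total counts Lrpprc, Tfam and Tfb2m were at -0.10, -0.06 and -0.09 and none was called. Against chow livers 11 of the 28 fell in DT livers, beside 23.0% of all genes called in either direction, 1391 lower and 2528 higher. Among the 11 were Tfb1m, which fell by 0.69, and Elac2, which trims mitochondrial transfer RNA and fell by 0.51. Under total counts Tfb1m and Elac2 were at -0.24 and -0.06 and not called. In saline against chow livers only Polrmt, the mitochondrial RNA polymerase, was called, and it fell by 0.50. This call was lost under total counts at -0.38 and with the GC correction. It was kept in 6 of 11 refits, with a highest adjusted p of 0.110 without chow liver 1.

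Of 12 regulators of mitochondrial biogenesis, 3 fell and none rose in DT against saline livers, a share near the 21.9% of all genes called in either direction. The share of falls was above that of all genes, 1298 of 17038. Ppara, the receptor that drives fatty acid oxidation genes, had 61.9, 102, 92.9 and 83.1 CPM in DT livers, against 246, 263, 235 and 297 CPM in saline livers and 158, 146 and 160 CPM in chow livers. The groups did not overlap: Ppara fell by 1.61 in DT against saline livers (SE 0.15, adjusted p 0.00087) and rose by 0.75 in saline against chow livers (SE 0.16, adjusted p 0.022). The fall was kept in 11 of 11 refits without 1 liver, and the rise in 6 of 11, with a highest adjusted p of 0.104 without chow liver 2, and it was not called after the GC correction or with a replicate block. Gabpa, a subunit of nuclear respiratory factor 2, had 19.0, 39.9, 38.1 and 41.7 CPM in DT livers and 54.8 to 60.2 CPM in saline livers. Gabpa fell by 0.72 (SE 0.20, adjusted p 0.025), a call kept in 8 of 11 refits. Esrrg, an orphan receptor for respiratory genes, had 0.418, 4.14, 0.339 and 0.345 CPM in DT livers and 5.43 to 9.16 CPM in saline livers, and fell by 2.43 (SE 0.73, adjusted p 0.035), a call kept in 3 of 11 refits. Under scaling to total counts Ppara and Esrrg stayed called at -1.28 and -2.27, and Gabpa was at -0.39 and not called. Ppargc1a, the coactivator known as a master regulator of the programme, had 6.25, 11.5, 30.2 and 23.2 CPM in DT livers and 10.3 to 12.9 CPM in saline livers and was not called. Nrf1 itself had a log2 fold change of 0.11 ± 0.13.

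Carriers and subunits outside the symbol rule went both ways, with 2 of 23 higher and 2 lower in DT against saline livers, a share below the 21.9% of all genes. Slc25a4, the heart and muscle form of the ADP/ATP carrier, had 15.4, 6.45, 13.6 and 12.9 CPM in DT livers, against 5.54 to 6.69 CPM in saline livers, and rose by 0.97 (SE 0.23, adjusted p 0.014). Its DT liver 2 value was inside the saline range. Ucp2, an uncoupling protein that macrophages also express, rose by 0.79. Etfdh and Etfa, which pass electrons from fatty acid oxidation to ubiquinone, fell by 0.62 and 0.47. Etfdh stayed called under total counts at -0.31, and Etfa did not at -0.16. Of 16 citrate cycle genes, Sucla2, Pdha1 and Dlat fell by 0.51, 0.52 and 0.34 and Mdh2 rose by 0.50, a share near the 21.9% of all genes. The calls of Dlat and Mdh2 were each kept in 2 of 11 refits and that of Etfa in 1. Those of Etfdh and Pdha1 were each kept in 7, and that of Sucla2 in 8. None of the falls of Sucla2, Pdha1 and Dlat was called under total counts. After the GC correction the Mdh2 value was 0.10 and not called, and Ucp2 was at 0.41 and not called either.

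These values sat beside differences in cell type markers whose part in them was not tested. The summed cholangiocyte markers were 28.6 to 409 CPM in DT livers, 20.3 to 46.3 CPM in saline livers and 20.8 to 33.3 CPM in chow livers, and the summed stellate cell and fibroblast markers were 277 to 790, 164 to 335 and 138 to 176 CPM. The summed hepatocyte markers were 65035 to 85483 CPM in DT livers, 79804 to 95124 CPM in saline livers and 95402 to 119367 CPM in chow livers, and none of the 8 was called in DT against saline livers. Kupffer cell markers summed to 214 to 265 CPM in DT livers and 375 to 508 CPM in saline livers, and leucocyte markers to 16.5 to 60.9 CPM and 15.4 to 27.6 CPM.

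Of the 10 rows counted as pseudogenes, 8 are annotated as processed pseudogenes, while Cox5b-ps and Cox7c-ps1, annotated as a protein-coding gene and a processed transcript, were placed there by symbol. None was called in any comparison. Their median log2 fold change was -0.12 in DT against saline livers, and their counts may include reads of the parent genes.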

How the data were processed

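RNA of 11 whole livers was measured as poly(A) RNA, per the labels, whose extraction text also describes sorted CD45-positive cells for single-cell work. FastQC, STAR, featureCounts and the build GRCm39 are named in the submitters' processing notes. Versions, annotation, strandedness, mate counting and the handling of reads with several places are not given in the sources used here. The deposited values are raw counts per gene from the authors. From 76.1% to 81.1% of counts under 20 were even in each library, so halved counts were tried.

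Genes were kept with edgeR's filterByExpr, scaled by TMM and fitted with the quasi-likelihood model of edgeR 4.0.16 (R 4.3.3, limma 3.58.1). All 3 groups entered, each with its own mean, with robust estimates and 8 residual degrees of freedom. The common biological coefficient of variation was 30.1%. Tests were two-sided, and Benjamini-Hochberg adjustment ran over 17038 genes in each comparison. A count of 3 in a library, 0.0516 to 0.0682 CPM, was taken as the detection limit, for counting error alone. Log2 values by liver used a prior count of 2. The fit was tested on simulated data. Replicate libraries differed by more than sampling noise.

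Lengths and GC content came from GENCODE M21 transcripts (GRCm38) matched by Ensembl identifier, and promoters from RefSeq. The table uses older symbols, such as Atp5g1 for Atp5mc1. The genes and lists described were chosen with earlier results of these data known. Named genes were drawn from the mitochondrially encoded ones, the isoform genes, up to 3 nuclear genes of smallest p for each complex and comparison, the 3 largest rises and falls, and up to 3 genes of smallest p in each other list. Not every gene that met these rules is described. Atp5b, Sdhb, Uqcrfs1 and, outside the set, Cox17, Mdh2, Etfa, Tfb2m and Nrf1 were added to the comparison of DT with saline livers after their values were seen.

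Alternatives were RLE, upper quartile and total count scaling, scaling without mitochondrial genes, DESeq2 1.42.0, limma-voom, other filters, only the compared groups, a replicate block, halved counts and each liver left out. A GC correction (loess, span 0.3) and fits without both DT livers 1 and 2 were added after seeing the data.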

Additional observations from a re-analysis of the deposited data

Results flagged for a closer look

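In 8 of the 114 group and quantity combinations examined, 1 liver stood farther from the other 3 than Dixon's 95% critical value allows for 4 samples, and chance gives about 1 in 20. DT liver 2 was involved in 6 of the 8. It was the highest DT liver for Ndufa1 at 63.9 CPM, against 35.4 to 39.4 CPM in the other DT livers. The same held for Ndufb3 at 50.8 CPM, against 27.3 to 31.3 CPM, and for Uqcrb at 117 CPM, against 52.2 to 59.0 CPM. Atp5j had 125 CPM in it, against 81.4 to 83.2 CPM, and Atp5pb, the peripheral stalk subunit b of complex V, had 254 CPM, against 181 to 192 CPM. For Cox6b2 DT liver 2 was the lowest at 0.0832 CPM, against 0.689 to 0.746 CPM.

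The other 2 concern saline livers. Mt-Nd5 had 8677 CPM in saline liver 1, against 10814 to 11132 CPM in the other saline livers. Cox7a1 had 0.956 CPM in saline liver 2, against 0.468 to 0.512 CPM in the others.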

How the results depend on the processing

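Counts of called genes depended on the settings. In DT against saline livers, 1 nuclear gene was called, against 4 (all higher) under total count scaling, 3 with DESeq2, 2 with halved counts, 0 with only the compared groups, 0 with a replicate block, 14 with the GC correction and 76 without DT livers 1 and 2. Leaving out 1 liver at a time gave 0 to 40. For mitochondrially encoded genes, 0 were called, against 3 with DESeq2, 1 with limma-voom, 1 with the replicate block, 6 with the GC correction, 12 without DT livers 1 and 2, and 0 to 8 leaving out 1 liver. In saline against chow livers, 0 nuclear and 0 mitochondrially encoded genes were called, against 7 and 1 with only the compared groups and 9 and 1 without DT livers 1 and 2, and leaving out 1 liver gave 0 to 1 and 0. Of all genes, 5.58% were called, against 20.1% with only the compared groups and 18.9% without DT livers 1 and 2. Leaving out 1 liver gave 1.62% to 11.4%. The nuclear median, -0.15, was -0.021 under total counts and -0.097 with the replicate block, and the mitochondrially encoded median, 0.04, was 0.16 under total counts, -0.083 with the GC correction and -0.018 to 0.15 leaving out 1 liver.

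In DT against chow livers, 3 nuclear genes were called, against 5 (all higher) under total counts, 5 with DESeq2, 1 with RLE, 1 without a filter, 0 with upper quartile scaling, 0 with only the compared groups, 0 with the replicate block, 35 with the GC correction, 76 without DT livers 1 and 2, and 0 to 63 leaving out 1 liver, with 63 without DT liver 2. The nuclear median, -0.32, was 0.11 under total counts. For mitochondrially encoded genes, 0 were called, against 1 with DESeq2, 9 with the GC correction, 11 without DT livers 1 and 2, and 0 to 7 leaving out 1 liver. Of all genes, 23.0% were called in this comparison, against 38.4% under total counts, 28.4% with DESeq2 and 34.1% with the GC correction. The share was 44.8% without DT livers 1 and 2. It was 10.1% to 40.35% leaving out 1 liver, the highest without DT liver 2. The 5 genes outside the copied segment took 4.04% of counts in saline livers and 3.91% in chow livers. Atp5g1 reversed from 0.03 to -0.28 in DT against saline livers without DT livers 1 and 2. Foxred1, a complex I assembly factor, was called at -0.32 in DT against chow livers (adjusted p 0.023 in edgeR) and reversed to 0.14 under total counts. The cause of these differences was not tested.

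The median log2 fold change of all genes in DT against saline livers was 0.36 under total count scaling, against 0.02 with TMM, and 92.1% of called genes were then higher, against 65.2% with TMM. In DT against chow livers 94.8% were higher, against 64.5%, and in saline against chow livers 67.0%, against 43.9%. With the GC correction 37.7% and 38.0% were higher in DT against saline and DT against chow livers. Livers with the same number did not deviate together, with correlations of -0.164 to 0.182, so the replicate block is not a pairing by design.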

Other observations

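Mitochondrial ribosomal RNA, which the symbol rule does not take, was counted highest in saline livers. Mt-Rnr1, the small subunit RNA, had 75.0, 642, 486 and 477 CPM in DT livers, against 715, 787, 846 and 1079 CPM in saline livers and 333, 454 and 530 CPM in chow livers. All saline livers were above all other livers. The log2 fold changes of 0.97 ± 0.51 in saline against chow livers and -1.03 ± 0.46 in DT against saline livers were not called, with adjusted p of 0.31 and 0.13 in edgeR. Mt-Rnr2, the large subunit RNA, had 61.3, 792, 827 and 846 CPM in DT livers, 1088, 996, 1518 and 1626 CPM in saline livers and 542, 741 and 985 CPM in chow livers. With TMM all saline livers were again above all others. The TMM factors were 1.27 and 1.30 in DT livers 3 and 4, against 0.944 and 0.934 in saline livers 1 and 2. Without these factors, those DT livers were above those saline livers for mt-Rnr2.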
